A study of Pteromalus puparum with 9 samples.

Results

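In 59 of 21808 ID stems the leading transcript model changed between the salivary gland duct and the salivary gland reservoir of Pteromalus puparum, a parasitoid wasp of butterfly pupae, while the summed level of the stem stayed within 4-fold. An ID stem is a transcript ID without its isoform number, with a trailing x kept, and is used in place of a gene, since no annotation of genes was used. The stems were chosen on their duct and reservoir counts: each had at least 2 models and at least 50 summed counts in each of the 6 gland libraries, 1 model with the most counts in all 3 duct libraries (the duct leader), and another with the most counts in all 3 reservoir libraries (the reservoir leader). The gland means of the stem, in CPM (counts scaled to library size with TMM factors), had to be less than 4-fold apart. Of the 21808 stems, 5828 had 2 or more models, 3497 of these met the count minimum, and 3383 of these met the limit on the fold. In 2368 of the 3383 each gland part had 1 leading model in its 3 libraries, which was the same model in 2309 and a different one in the 59.

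The study sequenced RNA of 3 wild-type tissues in bulk, with strand-specific libraries: the duct and the reservoir of the salivary gland, and the carcass, a term that the labels do not define further. Each tissue had 3 biological replicates by its labels, with 1 batch number for all 9 libraries, and the labels do not say whether these came from separate animals or pools, so p-values reflect only how far these samples differ, which may be technical. The labels give neither age nor sex. The libraries held 18690598 to 22640711 estimated counts. The tissue labels were not checked against marker genes, since the files do not pair the IDs with gene names, and for the same reason no gene name, role or sequence is given for any stem.

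One gene can give several transcripts through alternative promoters, alternative splicing or alternative ends, and such isoforms can differ in the encoded protein or in how the RNA is translated and degraded. A change of isoform between tissues can occur with no change in the total output of a gene, so it is missed where counts are summed per gene. In insects the salivary gland makes secreted proteins, which a reservoir can store and a duct carries away. In bulk RNA, fewer cells of a type and less RNA per cell cannot be told apart, and a change in the leading model can come from a change within cells or from other proportions of cells.

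The size of the switch varied widely among the 59 stems. It is given here as the mean of 2 differences in share of the stem's counts: the duct leader's share in the duct minus that in the reservoir, and the reservoir leader's share in the reservoir minus that in the duct. It ran from 3.22 to 89.5 percentage points with a median of 33. It was at least 50 points in 14 stems, between 25 and 50 in 25, between 10 and 25 in 12, and under 10 in 8. These values chose the stems and are a description without a test. The typical spread between replicates was smaller than the typical switch: the median SD of the leader's share over 3 libraries was 5.12 points for duct leaders in the duct and 5.52 points for reservoir leaders in the reservoir, with a highest value of 25.4. In 7 stems the switch was less than 2 SD of itself over the libraries. The rule needed the same leader in all 3 libraries of a part, which favours a small spread. Setting the spread against the switch is therefore no test.

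**Figure D1:**
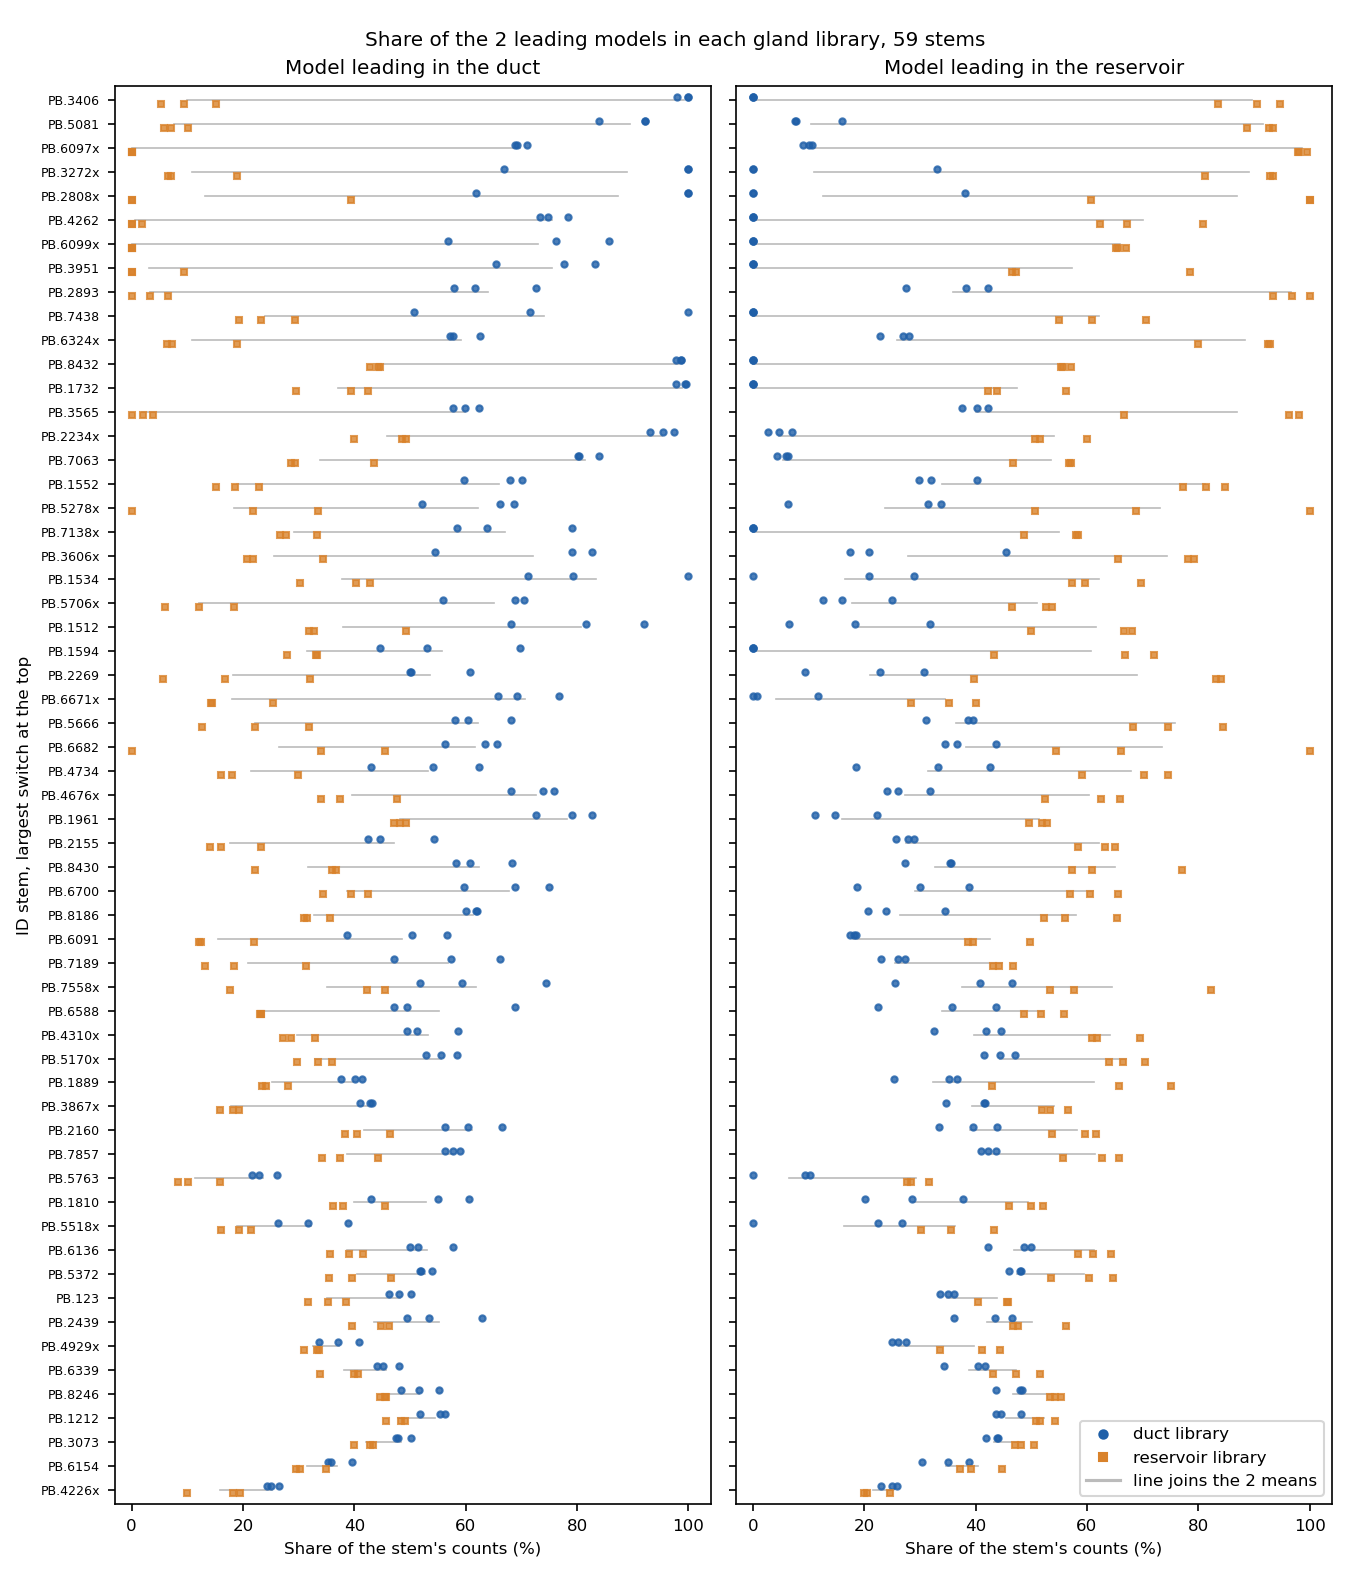
Share of the stem's counts (%, horizontal axis) held by the model that leads in the duct (left) and by the model that leads in the reservoir (right) in each gland library of the 59 stems (vertical axis, ordered by switch size). Blue circles are duct libraries, orange squares reservoir libraries, and grey lines join the means; the switch falls from 89.5 points at the top to 3.22 points at the bottom.

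The largest switch was that of PB.3406, a stem of 3 models. Its duct leader PB.3406.5 held 97.9%, 100% and 100% of the counts of its stem in duct replicates 1 to 3 and 15.1%, 9.42% and 5.29% in reservoir replicates 1 to 3. The reservoir leader PB.3406.2 had no count in the duct and held 83.6%, 90.6% and 94.7% in the reservoir. The 2 gland parts did not overlap for either model. The stem as a whole differed 1.51-fold, from 9.14 ± 1.82 CPM in the duct to 13.8 ± 2.11 CPM in the reservoir (SD, n = 3). In the carcass the libraries split: PB.3406.5 held 100% in replicate 1 but 5.96% and 2.5% in replicates 2 and 3, where PB.3406.2 led. Between reservoir and duct, the contrast that chose the stem, isoform usage had a limma diffSplice adjusted p of 0.0376. With 1 library left out it ran from 2.05e-05 to 0.207. Against the carcass, usage passed neither in the duct (diffSplice adjusted p = 0.0812) nor in the reservoir (adjusted p = 0.406).

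PB.5081, of 3 models, read in the reservoir as it did in the carcass. PB.5081.1 held 92.2%, 92.2% and 83.9% in the duct, and 10.1%, 5.84% and 7.03% in the reservoir. PB.5081.2 took nearly all the rest, with 88.8%, 93.4% and 92.7% in the reservoir and 94%, 94.9% and 94.5% in the carcass. The duct thus stood apart from the other tissues. Isoform usage of PB.5081 differed between duct and carcass (limma diffSplice adjusted p = 6.84e-08, in a test whose duct libraries also chose the stem), and between reservoir and carcass it did not pass (adjusted p = 0.681).

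PB.6097x, of 3 models, was the reverse case, with a carcass that resembled the duct. PB.6097.12x held 68.8%, 71% and 69.1% in the duct and 72.9%, 64.3% and 67.6% in the carcass, and it had no count in any reservoir library. The reservoir leader PB.6097.5x held 98.2%, 97.9% and 99.6% of the reservoir counts but 10.6%, 9.06% and 10.1% in the duct. The reservoir libraries therefore had no estimated count of a model that held most of the stem's counts in the other tissues. PB.6097.12x stood at 868 ± 285 CPM in duct libraries, 13767-fold above a floor of 3 counts over the reservoir group. This floor covers counting error only. How reads shared between models were divided was not tested, so the fold is no lower bound. The stem was also among the most abundant of the 59, with a summed level of 1246 ± 415 CPM in duct libraries, 433.5 ± 72.5 CPM in reservoir libraries and 87 ± 51.9 CPM in carcass libraries.

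In PB.3272x and PB.2808x, with 2 models each, single libraries departed from their group. PB.3272.3x held 100%, 67% and 100% in the duct and 6.53%, 7.17% and 18.9% in the reservoir, so that duct replicate 2 was lower than the other duct libraries and still above the reservoir. In the carcass PB.3272.3x held 100%, 50.8% and 100%. PB.2808.6x held 61.9%, 100% and 100% in the duct and 0%, 0% and 39.3% in the reservoir. Both parts of PB.2808x were near the count minimum, with 3.35 ± 0.652 CPM in the duct and 5.33 ± 0.954 CPM in the reservoir. The stem had 0 to 11 counts in the carcass libraries.

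PB.4262 and PB.3951 had a reservoir leader without an estimated count in the duct libraries. The reservoir leader of PB.4262, PB.4262.1, held 67.2%, 80.8% and 62.4% in the reservoir and had no count in the duct or the carcass. It stood at 17.5 ± 6.75 CPM in the reservoir, 349-fold above a floor of 3 counts over the duct group. This fold is no lower bound either. The duct leader PB.4262.3 held 73.4%, 78.4% and 74.7% in the duct, 0%, 0% and 1.81% in the reservoir, with 79.5%, 72.7% and 88.6% in the carcass. Duct and carcass were alike here. PB.3951.4, the reservoir leader of PB.3951, held 46.5%, 78.5% and 47.3% in the reservoir with no count in the duct, and 0%, 20% and 0% in the carcass. A further model of PB.3951, PB.3951.5, held 34.6%, 0% and 37.3% in the reservoir, so the reservoir libraries differed in how the stem was divided.

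PB.6099x, of 8 models, had a different leader in each of the 3 tissues. PB.6099.14x held 56.9%, 85.7% and 76.2% in the duct, and neither reservoir nor carcass held a count of it. PB.6099.6x held 66.9%, 65.3% and 65.5% in the reservoir, had no count in the duct and reached 0.411% in 1 carcass library. PB.6099.3x, without a count in either gland part, led the carcass with 63.6%, 54.7% and 40.8%. In no other of the 59 stems were both leaders without a count in the other gland part. When stems with and without the x were merged, neither PB.6099x nor PB.4262 met the rule any more. Usage of PB.6099x differed from the carcass in the duct (diffSplice adjusted p = 5.4e-07) and in the reservoir (adjusted p = 1.69e-05), in tests whose gland libraries also chose the stem.

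**Figure D2:**
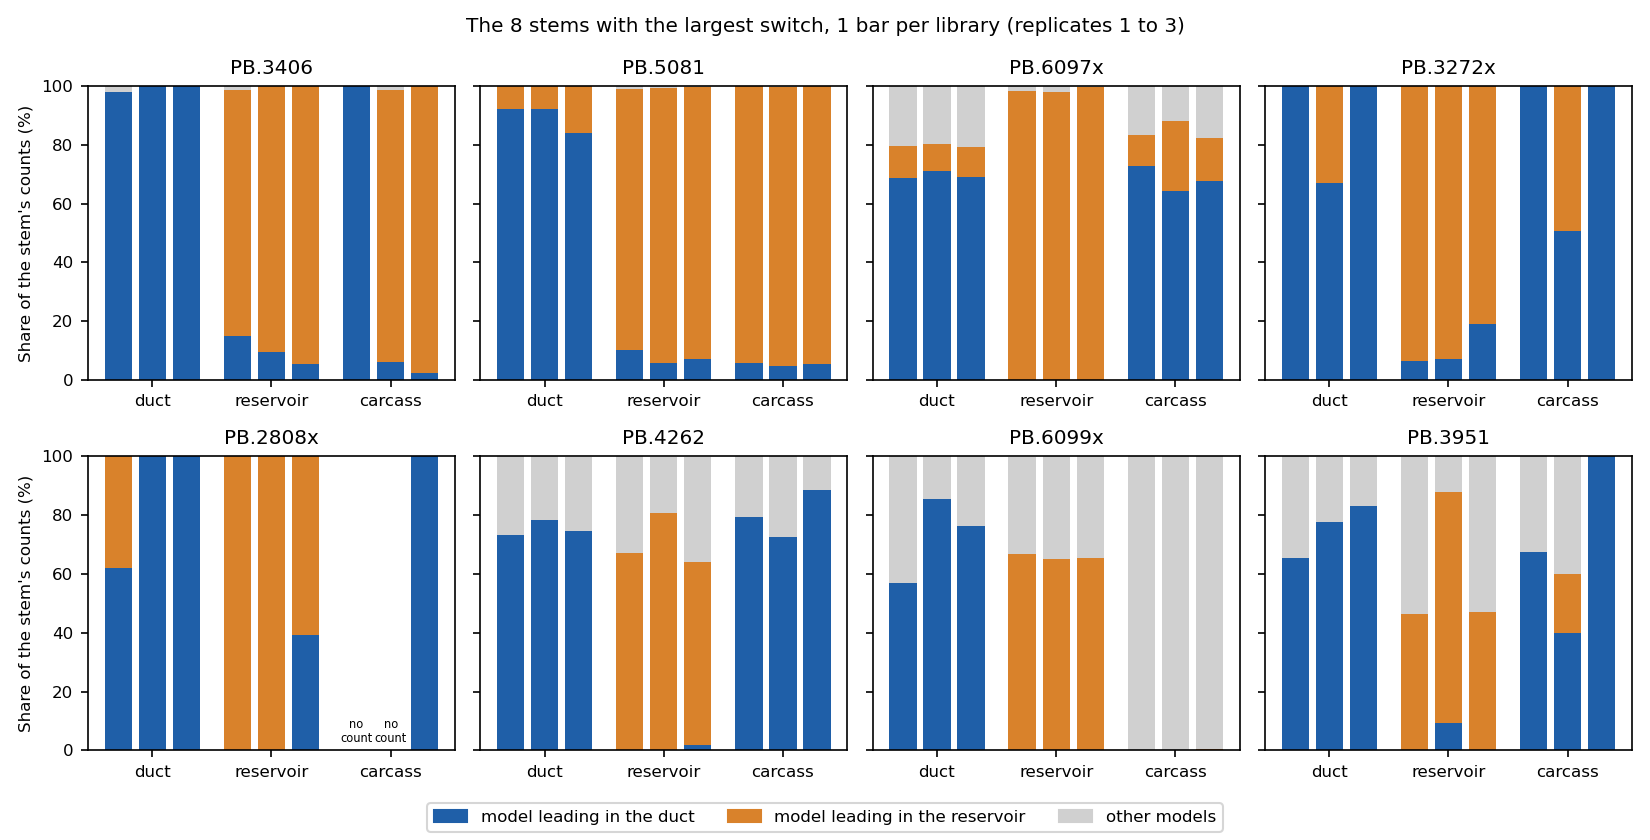
Share of the stem's counts (%, vertical axis) in each of the 9 libraries for the 8 stems with the largest switch, with 3 bars per tissue for replicates 1 to 3. Blue is the model that leads in the duct, orange the model that leads in the reservoir and grey the other models; PB.2808x had no count in 2 carcass libraries, and in PB.5081 the carcass bars lie close to the reservoir bars while in PB.6097x and PB.4262 they lie close to the duct bars.

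Most of the remaining stems shifted a balance between models that both gland parts contained. The duct leader had no count in the reservoir in 2 stems, PB.6097x and PB.6099x. The reservoir leader had no count in the duct in 9, which were PB.3406, PB.4262, PB.6099x, PB.3951, PB.7438, PB.8432, PB.1732, PB.7138x and PB.1594. The leader held over 50% in every library of its own gland part in 30 stems for both parts. In 28 stems the 2 leaders together made up at least 90% of the counts in both parts. All 3 duct libraries lay above all 3 reservoir libraries for the duct leader's share in 57 stems, where 11.3% of the 2617 comparable stems outside the 59 showed this. The exceptions were PB.1810 and PB.4929x. For the reservoir leader's share the reverse order also held in 57 stems, against 13% of 2646 stems, with PB.6154 and PB.4226x as exceptions. The choice of stems used these shares, so nothing is read from the counts.

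Levels of the models, and not only their shares, moved in different ways. Taking a 2-fold difference in mean CPM as the limit, the duct leader was lower and the reservoir leader higher in the reservoir in 17 stems. In 15 stems only the duct leader was lower, in another 15 only the reservoir leader was higher, and in 12 neither passed 2-fold. PB.8432 belonged to the second kind of one-sided change: its duct leader PB.8432.5 was present in both parts at 77.2 ± 22.3 CPM in the duct and 124 ± 13.4 CPM in the reservoir. The reservoir leader PB.8432.1 came on top of it, from no count to 159 ± 23.3 CPM, 3187-fold above a floor of 3 counts over the duct group. PB.7138x was similar, with PB.7138.35x at 62.4 ± 18.5 and 57 ± 13.4 CPM. PB.7138.9x went from no duct count to 108 ± 28.6 CPM, 2151-fold above that floor. Neither fold is a lower bound, since the division of shared reads between models was not tested. In both stems the reservoir also held the leading model of the duct and carried a further one.

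Among the most abundant stems, switches were of all sizes. PB.2155, a stem of 19 models, had the highest gland level, at 1416 ± 97.7 CPM in the duct and 2772 ± 62.3 CPM in the reservoir against 49.5 ± 15.2 CPM in the carcass. PB.2155.16 held 42.5%, 44.6% and 54.3% in the duct and 16%, 14.1% and 23.3% in the reservoir. PB.2155.15 held 28.9%, 25.7% and 27.9% in the duct and 63.3%, 65% and 58.3% in the reservoir, rising from 389 ± 4.07 to 1724 ± 94.7 CPM. Both models were thus abundant in both parts, and their order turned. Usage of PB.2155 differed from the carcass in the duct (diffSplice adjusted p = 6.1e-08) and in the reservoir (adjusted p = 2.87e-12), in tests whose gland libraries also chose the stem.

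PB.6671x, of 6 models, moved from a single dominant model to several. PB.6671.15x held 65.8%, 76.8% and 69.2% in the duct and 14.4%, 25.5% and 14.3% in the reservoir. PB.6671.9x held 0.7%, 0% and 11.7% in the duct and 40.1%, 28.5% and 35.2% in the reservoir, where PB.6671.14x and PB.6671.8x made up most of the rest. No reservoir library gave its leader a majority. PB.3073 and PB.4929x, by contrast, had small switches, of 5.895 and 8.985 points. The duct leader of PB.3073 held 48.5% ± 1.46 in the duct against 42% ± 1.85 in the reservoir (SD, n = 3), and that of PB.4929x 37.2% ± 3.59 and 32.6% ± 1.46. The reservoir leader of PB.4929x, PB.4929.13x, changed more. Of the counts of PB.4929x and PB.4929 together it held 26.2% ± 1.3 in the duct and 39.7% ± 5.59 in the reservoir.

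The smallest switches, below those of PB.3073 at 5.9 points, were those of PB.6154 at 5.48 points and PB.4226x at 3.22 points. The value of PB.4226x averages differences of opposite sign: the duct leader's share was 9.4 points lower in the reservoir, and the share of the reservoir leader PB.4226.12x was also lower there, at 24.6% ± 1.5 in the duct against 21.7% ± 2.61 in the reservoir (SD, n = 3). The duct leader was lower still there. In PB.4226x, of 14 models, PB.4226.19x and PB.4226.12x stood 0.0736 points apart in the closest library. In 26 of the 59 stems the leader was less than 5 points ahead of the next model in at least 1 library of its gland part, and in 9 it was at least 20 points ahead in every one. For single libraries the 95% Wilson interval of a leader's share extended 3.51 points to each side in the median and 12.5 points at most, from stem counts of 53 to 51416, and these intervals cover counting error only.

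The values next to the limits of the rule were as follows. PB.6682 entered with 53 counts in its lowest gland library, and PB.4016x stayed out with 47 although its duct leader fell from 56.2% in the duct to 3.08% in the reservoir. PB.1732 entered with gland means 3.88-fold apart and PB.8144 stayed out at 4.07-fold, with a duct leader at 88.2% and 20.4%. PB.200x and PB.2904 stayed out because 2 models tied for the most counts in 1 library, at 33 counts each in duct replicate 1 and at 47 each in reservoir replicate 3. With these 2, 176 stems broke the rule on leaders in 1 of the 6 gland libraries.

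Leaving each gland library out in turn showed how many stems that met the rule in the other 5 libraries failed it in the sixth. The rule applied to 5 libraries found 79 to 98 stems, 57 to 59 of them from the 59. The left-out library was led by the leader of its own gland part in 57 to 60 stems. These are nearly all the 59 themselves, so their number is set by the choice, and the number that failed is not: it was 20 to 41 for each library, so that 58.2% to 74.7% of the stems found went with their own part. Over the 6 libraries, 351 of 529 readings (66.4%) went with the library's own part, and 140 of the 178 that did not were led by the leader of the other part. Stems recur among these readings, which are therefore not independent. For stems with the same leader in both parts the left-out library had that leader in 96.2% to 97.2%. The share did not rise steadily with the switch over the other 5 libraries: it was 44 of 68 readings (64.7%) for switches under 10 points, 77 of 143 (53.8%) between 10 and 25, 140 of 202 (69.3%) between 25 and 50, and 90 of 116 (77.6%) from 50 points. The readings that went with their own part come nearly all from the 59 at any switch size. All these shares therefore describe the stems and test nothing.

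**Figure D3:**
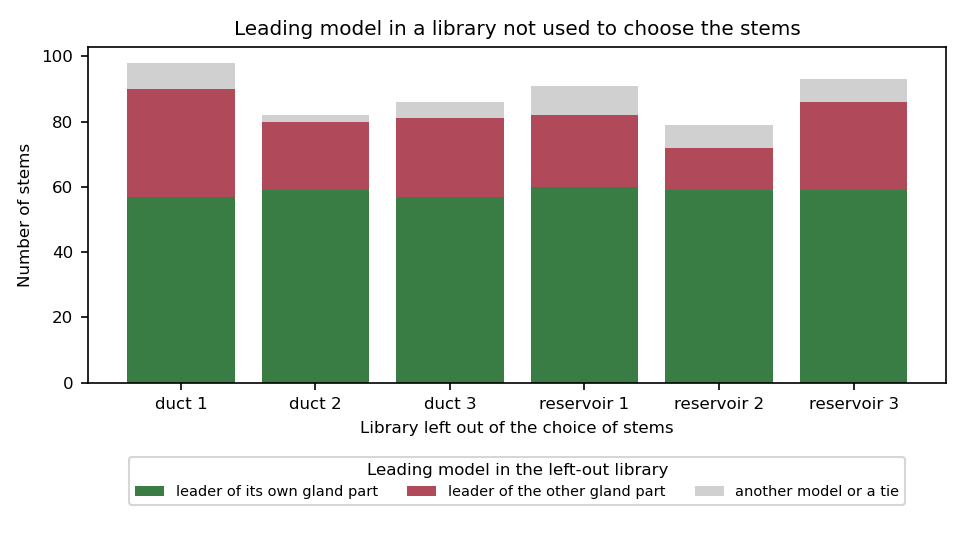
Number of stems (vertical axis) that met the rule in the other 5 gland libraries, for each library left out (horizontal axis), divided by the leading model in the left-out library. Green is the leader of the library's own gland part (57 to 60 stems), red the leader of the other part (13 to 33) and grey another model or a tie.

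The test of isoform usage between reservoir and duct called 33 of the 59 stems (55.9%), against 5.08% of all 4152 stems tested and 4.98% of the 2933 tested stems that met the count minimum and fold limit without a switch (limma diffSplice on voom values, with p adjusted by Benjamini-Hochberg and called under 0.05). This contrast chose the stems, so the count describes them and supports nothing. It called 13 of the 14 stems with a switch of at least 50 points, 16 of the 25 between 25 and 50, 4 of the 12 between 10 and 25 and 0 of the 8 under 10. Leaving out duct replicate 2 gave 21 calls, and leaving out duct replicate 3 or reservoir replicate 2 gave 19, and 14 stems were called in each of the 9 fits that left out 1 library.

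Per-length values did not always give the same leaders. Shares computed from the authors' TPM, which corrects for transcript length, gave switches of 3.14 to 89.6 points between the same pairs of models, with a median of 30.6. TPM rests on the same counts divided by model length, so the direction of these switches is nearly fixed by the choice of stems and is no support for it. These rest on 5 gland libraries, because the TPM column of reservoir replicate 2 was not used. The same 2 models led by TPM in 39 stems. These made up 35 of the 39 stems with a switch of at least 25 points and 4 of the 20 with a smaller one. Some leaders differed much in length: the ratio of effective lengths, read from counts and TPM where both models had at least 10 counts in a library, could be formed in 57 stems and was over 2-fold in 9. The reservoir leader was the longer model in 28 stems and the duct leader in 29, with a median ratio of 0.996, so the change of leader had no common direction in length.

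PB.8432, PB.6097x and PB.3406 gave unlike switches by counts and by TPM. The TPM switches also leave out a reservoir library, so length is not the only difference between the measures. In PB.8432 the reservoir leader had 0.403 times the effective length of the duct leader, and the switch grew from 55.2 points by counts to 75.5 points by TPM. In PB.6097x the reservoir leader was 4.59 times as long, and the switch grew from 79.1 to 89.6 points. In PB.3406 it was 2.11 times as long, and the switch went from 89.5 to 80.5 points.

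The carcass, which the rule did not use, most often had the duct leader or no fixed leader. Of the 59 stems, 57 had at least 50 counts in each carcass library, the others being PB.2808x and PB.5170x. The duct leader also led all 3 carcass libraries in 22 stems and the reservoir leader in 8. Another model led in 2, PB.6099x and PB.7138x, and in 25 the 3 carcass libraries did not share a leader. A common carcass leader was thus found in 32 of 57 stems (56.1%), where it was found in 78% of the 3243 stems with the same count minimum in all 9 libraries and less than 4-fold between the gland parts. Unlike the 57, these stems did not have to share a leader within each gland part. Without carcass replicate 3 the duct leader led in 26 stems, the reservoir leader in 13, and 16 had no common leader.

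Distances between whole profiles put less weight on the leader. The distance is the share of the stem's counts that would have to move between models to turn one mean profile into the other. In the 57 stems its median was 36 points between duct and reservoir, 20.3 points between carcass and duct and 33.6 points between carcass and reservoir. The carcass was nearer to the duct in 34 stems and nearer to the reservoir in 23, or 59.6% for the duct. Of 2220 stems with the same leader in both gland parts and the same carcass minimum, the duct was nearer in 1213 (54.6%) and the reservoir in 879, the rest being equally far from both. Without those at equal distance the duct was nearer in 58%, and the 57 held no such stem. The 59.6% of the 57 was close to this share, so nothing particular to them is read from it. The medians in the 2220 were 4.37, 5.37 and 6.65 points. In 8 stems the carcass was farther from both gland parts than these were from each other.

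**Figure D4:**
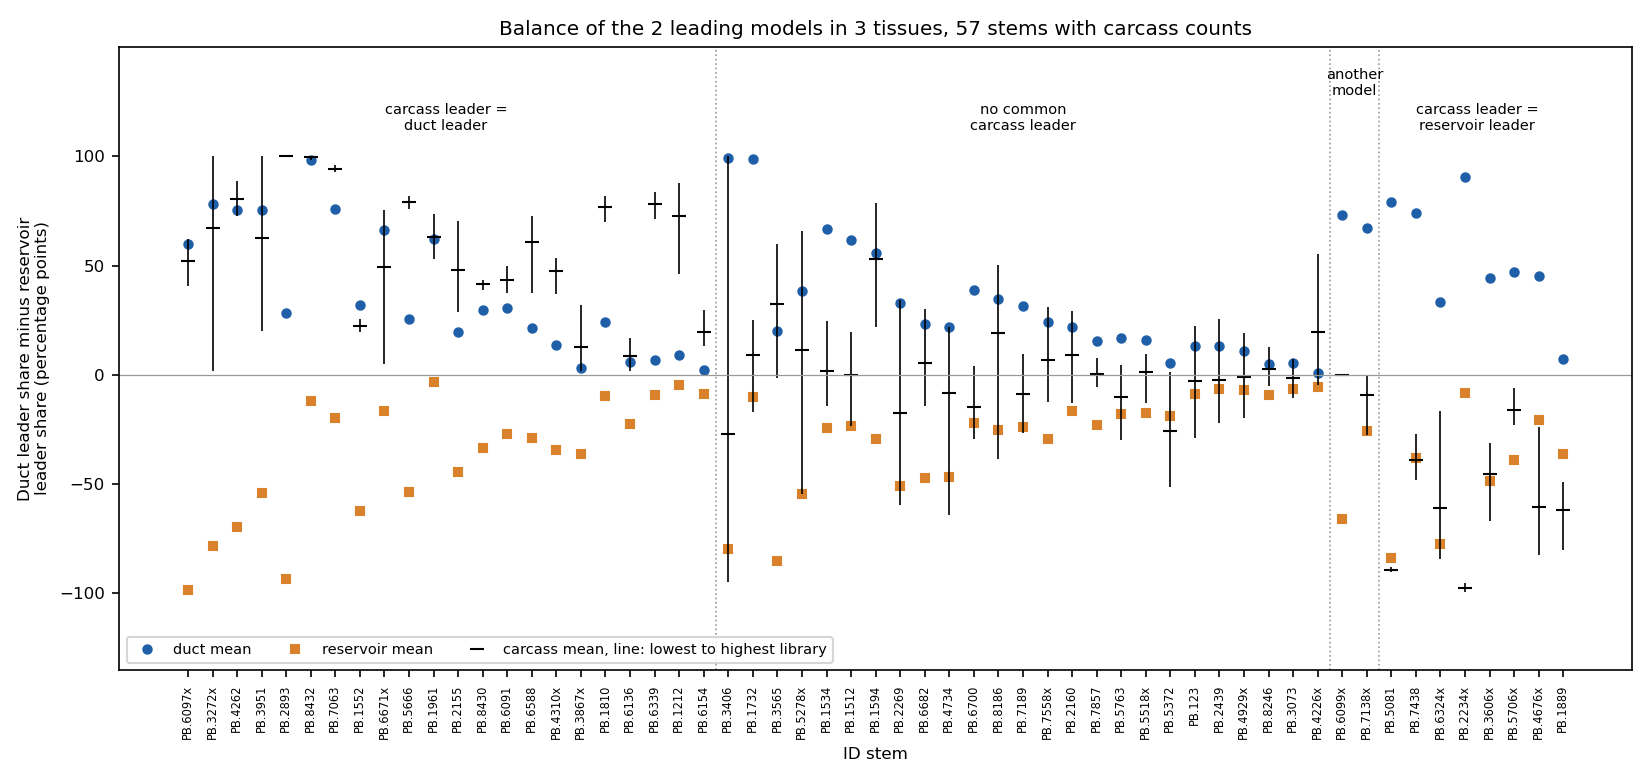
Duct leader share minus reservoir leader share (percentage points, vertical axis) for the 57 stems with at least 50 counts in each carcass library (horizontal axis), grouped by the model that leads the carcass. Blue circles are duct means, orange squares reservoir means, and black marks carcass means with a line from the lowest to the highest carcass library; the groups hold 22, 25, 2 and 8 stems from left to right.

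Isoform usage differed from the carcass in 26 of the 59 stems (44.1%) for the duct, against 16.4% of all 4152 stems tested and 17.4% of the 2933 without a switch. For the reservoir it differed in 29 (49.2%), against 17.4% and 19.5% (limma diffSplice adjusted p under 0.05). The gland libraries of these tests also chose the stems for unlike leaders, and a carcass with the leader of one part then differs from the other part, so the counts describe the stems and support nothing. A p that missed the threshold does not show that usage was equal.

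Single stems showed each kind. PB.2893, chosen for mention after its values were seen, had PB.2893.2 at 100% in each carcass library, at 72.5%, 57.8% and 61.8% in the duct and at 0%, 6.59% and 3.24% in the reservoir. PB.2234x, chosen in the same way, ran the other way: PB.2234.15x held 97.3%, 93% and 95.3% in the duct, 49.3%, 48.5% and 39.9% in the reservoir, with 2.36%, 0.369% and 0.794% in the carcass. In PB.2893 the duct lay between the other tissues, and in PB.2234x the reservoir did. PB.7138x was led in the carcass by PB.7138.58x, at 80.6%, 56.8% and 91.8%, a model without a duct count that reached 5.34% in 1 reservoir library.

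PB.7063 and PB.8186, with PB.6099x, had the highest carcass level relative to the gland. PB.7063 stood at 359 ± 138 CPM in the carcass, 76.1 ± 9.27 CPM in the duct and 28.4 ± 1.56 CPM in the reservoir. PB.7063.1 held 95.4%, 95.5% and 97.1% in the carcass, 83.9%, 80.2% and 80.3% in the duct and 43.6%, 28.6% and 29.3% in the reservoir. PB.7063.2 led the reservoir with 46.6%, 57.1% and 56.8% and held 1.69%, 2.86% and 1.18% in the carcass. The order was carcass, duct, reservoir, with no overlap between neighbours for PB.7063.1. Usage differed from the carcass in the duct (diffSplice adjusted p = 3.56e-05) and in the reservoir (adjusted p = 2.26e-09), in tests whose gland libraries also chose the stem. In PB.8186 the carcass libraries did not share a leader, with PB.8186.5 at 70.6%, 29.8% and 74.3%.

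The summed levels of the 59 stems were compared with the carcass by edgeR's quasi-likelihood test over 12143 stems, where a call needed 2-fold and p under 0.05 after Benjamini-Hochberg adjustment. In the duct 17 of the 59 were higher than in the carcass, against 16.3% of all tested stems, and 5 were lower, against 22%. In the reservoir 18 were higher, against 15%, and 10 were lower, against 27.5%. The count minimum in the gland favours stems with high gland levels, so the 3324 tested stems that met the same minimum and fold limit without a switch are the nearer background: 17.8% of them were higher and 7.43% lower in the duct, and 21.8% were higher and 8.36% lower in the reservoir. The shares in the 59 were 28.8% and 8.47% for the duct and 30.5% and 16.9% for the reservoir. The median log2 fold change was 0.49 for the duct and 0.34 for the reservoir, against 0.16 and 0.22 in those 3324 stems and -0.05 and -0.23 in all tested stems.

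Stems above the carcass in both gland parts numbered 11 (18.6%), against 15.5% of the 3324 stems and 10.7% of all tested stems, and stems below it in both numbered 5 (8.47%), against 5.29% and 19%. The 2 comparisons share the carcass libraries, and the fold limit leaves almost no room for opposite calls, so nothing is read from their agreement. PB.2155 was higher by a log2 fold change of 4.85 ± 0.29 in the duct (SE; edgeR adjusted p = 7.06e-06) and 5.82 ± 0.3 in the reservoir (edgeR adjusted p = 3.74e-06). For PB.8432 the log2 fold change was 3.44 ± 0.3 in the duct (adjusted p of edgeR = 4.07e-05) and 5.29 ± 0.33 in the reservoir (adjusted p of edgeR = 6.69e-06). The 5 stems lower in both parts were PB.5081, PB.6099x, PB.7063, PB.1594 and PB.8186. PB.1594 was the weakest, at -1.04 and -1.44. Its duct call was lost without carcass replicate 1, 2 or 3, duct replicate 2 or 3 or reservoir replicate 2 (-1.13 to -0.82), and its reservoir call without reservoir replicate 2 or 3 (-1.19 and -1.12). The lowest value was that of PB.7063 in the reservoir, at -3.65 ± 0.29 (edgeR adjusted p = 1.87e-05). PB.4262 was higher in the duct, by 2.55 ± 0.47 (edgeR adjusted p = 0.00213), and did not pass in the reservoir, at 0.62 ± 0.45 (edgeR adjusted p = 0.267). Without carcass replicate 1 it passed there as well, at 1.45 (edgeR adjusted p = 0.00167).

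**Figure D5:**
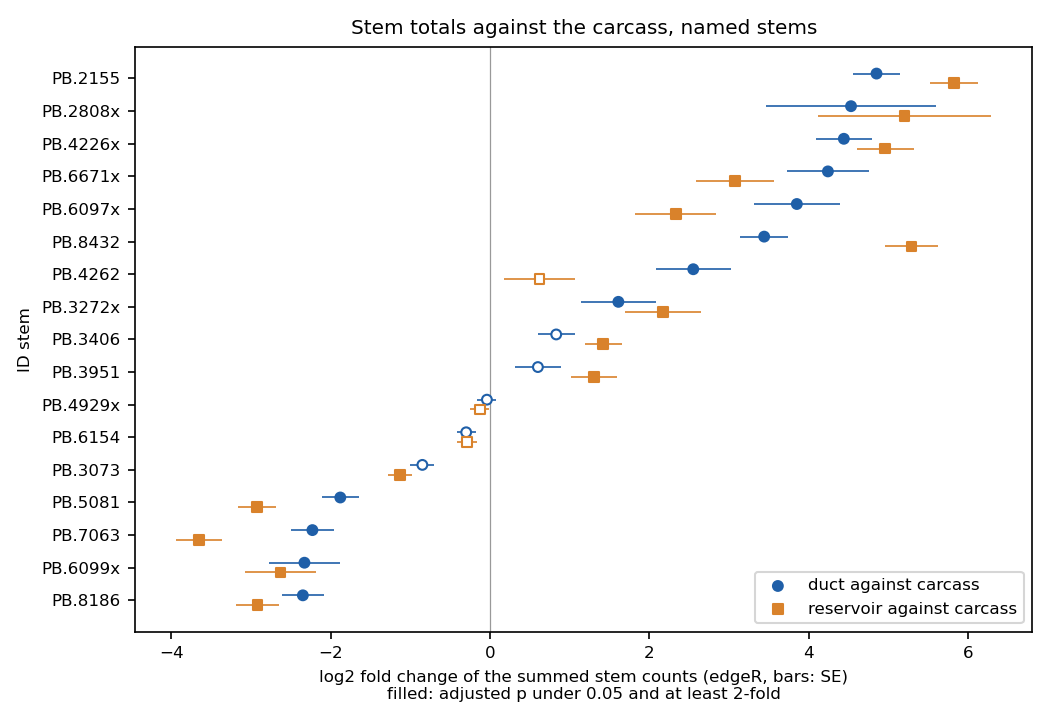
log2 fold change of the summed counts of the named stems against the carcass (horizontal axis, bars are SE, n = 3 libraries per tissue) for the duct (blue circles) and the reservoir (orange squares). Filled marks passed an edgeR adjusted p of 0.05 and a 2-fold difference; PB.2155 lies at 4.85 and 5.82 and PB.7063 at -2.23 and -3.65.

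Between the gland parts themselves, whose difference the rule limits, 1 stem was higher in the reservoir (PB.8432), against 6.24% of all tested stems and 4.06% of those 3324, and 7 were lower, against 10.9% and 3.28%. Nothing is read from these.

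The number of calls depended on the scaling. With libraries scaled by size alone, 10 of the 59 stems were higher and 10 lower in the duct, and 10 were higher and 20 lower in the reservoir. TMM factors, which that scaling leaves out, ran from 0.9489 to 1.0358 for duct libraries, from 0.7458 to 0.8195 for reservoir libraries and from 1.0827 to 1.6329 for carcass libraries.

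The 59 stems together took a small part of each library. Of all counts, they held 0.615% ± 0.0412 in duct libraries, 0.494% ± 0.0209 in reservoir libraries and 0.417% ± 0.0469 in carcass libraries (SD, n = 3). Their gland levels ran from 4.34 to 2090 CPM with a median of 30.8, against 22.7 for the 3383 stems that met the count minimum and the fold limit. The gland parts were less than 2-fold apart in 47 of the 59, with a median fold of 1.46 against 1.23 in the 3383. The mean was higher in the duct in 30 (50.8%, against 42.7% of the 3383) and in the reservoir in 29. The stems had 2 to 19 models with a median of 4, against 3 in the 3383, and 14 of them (23.7%) had 2 models, against 36.2%. All 59 carried the ID prefix PB, as did 97% of the 3383, and 19 (32.2%) ended in x, against 23.5%. No label says what the prefix and the x stand for.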

How the data were processed

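RNA was extracted with TRIzol and sequenced as strand-specific Illumina libraries, per the labels' protocols. Salmon 1.9 is named in the submitters' processing notes, and a genome build or annotation was not used here. The authors deposited estimated counts per model, as whole numbers, so that rounding changed 0 values, and a table of TPM. The deposited TPM column of reservoir replicate 2, marked as a score, sums to 2000000, where every other column sums to 1000000. It equals duct replicate 3 plus reservoir replicate 1 in 99.96% of models within 2e-06, so it was not used.

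Stem totals (12143 of 21808 stems after filterByExpr) were tested in R 4.3.3 with edgeR 4.0.16, 1 coefficient per tissue over all 9 libraries, TMM scaling and quasi-likelihood F tests, with standard errors from F. Isoform usage (21287 models) was tested with voom and diffSplice in limma 3.58.1. DESeq2 1.42.0 was an alternative. The scripts were tested on simulated data. Isoforms share reads, and how Salmon divided them was not tested. The stems, lists and tests were chosen with earlier results of these data known. Stems named are the 8 with the largest and 3 with the smallest switch, the 6 with the highest gland CPM, the 3 with the highest carcass level relative to the gland, those next to a limit, all of any count of 5 or fewer, and those said to be chosen after their values were seen. A count of 0 in a library allows up to 0.0909 to 0.21 CPM (3 counts) by counting error alone, without regard to how shared reads were divided.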

Additional observations from a re-analysis of the deposited data

How the results depend on the processing

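The number of stems meeting the rule was 59. It was 6 when the leader had to hold at least 60% in each library and 103 when stems with and without the x were merged, with 44 leader pairs shared with the 59. It ranged over 79 to 98 when 1 gland library was left out. Count minimums, fold limits, scalings, leaders by TPM (79 stems, 39 shared) and ties going to the model listed first (61, chosen after seeing the data) kept it within 1.5 times. Members called for usage between reservoir and duct numbered 19 to 41 with 1 library left out. Usage calls against the carcass numbered 20 to 28 for the duct and 25 to 35 for the reservoir with 1 library left out. In the carcass, 24 to 26 stems had the duct leader, 10 to 13 the reservoir leader, 2 to 3 another model and 16 to 19 no common leader with 1 carcass library left out. Scaling by size alone gave 10 stems higher and 10 lower in the duct, relative to the carcass, and 10 higher and 20 lower in the reservoir. With 1 library left out these numbered 16 to 19, 4 to 5, 17 to 22 and 7 to 10. Same-numbered libraries correlated at -0.103 to 0.128 in their deviations, so the numbers were not taken as a pairing. With the replicate block, 30 stems were called between reservoir and duct, 25 and 27 in usage against the carcass, and 17, 5, 18 and 10 in the totals. Stems near 50 counts are limited by depth, with intervals of up to 12.5 points.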

Other observations

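Stems whose IDs differ only by the trailing x were kept apart above, and no label says whether such stems belong to 1 locus. Merged by number, 103 stems met the rule, of which 59 had a leader pair not among those described: in 35 an x model led the duct and a model without x the reservoir, and in 24 the order was the opposite. Their median switch was 43.5 and 34.6 points. Among the stems described above with the largest switches, PB.4262 and PB.6099x did not meet the rule once merged. Of the 4030 merged stems that met the count minimum and fold limit, 2415 held both kinds of model. PB.7947, chosen after its values were seen, gave the largest of these switches: PB.7947.3x held 87.3% ± 4.98 of the merged counts in duct libraries, 0% in reservoir libraries and 5.9% ± 9.92 in carcass libraries (SD, n = 3), with PB.7947.2 holding the rest. In PB.1024, chosen in the same way, PB.1024.1 held 89.3% ± 2.07 in duct libraries, 2.59% ± 0.179 in reservoir libraries and 42.7% ± 27.1 in carcass libraries. These values are given without a test.

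Beyond the fold limit, 5 stems changed their leader while the summed level differed by 4-fold or more: PB.8144, PB.4080, PB.4799x, PB.6977 and PB.6548x. In PB.6548x, at 22.9-fold, PB.6548.18x had 59.1% of the counts in duct libraries and 9.37% in reservoir libraries, and in PB.4799x, at 7.73-fold, PB.4799.19x went from 66.9% to 10.8%.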
